A study of Mus musculus with 10 samples.

Results

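The genes described here are the nuclear genes for the subunits of the mitochondrial respiratory chain and of the ATP synthase. They were chosen by symbol, as genes whose symbols begin with Ndufa, Ndufb, Ndufc, Ndufs, Ndufv, Uqcr, Cox4i, Cox5, Cox6, Cox7, Cox8 or Atp5, together with Cyc1 and the Sdh genes, and assembly factors and pseudogenes were left out. Of 18194 genes that had a probe set of their own, 83 were respiratory chain genes, and 73 of these passed the filter on low signal, log2 5 or more in at least 2 arrays, which 9391 genes passed in all. The 73 comprised 33 genes of complex I, 4 of complex II, 9 of complex III, 10 of complex IV and 17 of complex V. Each gene was represented by its brightest probe set.

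RNA of NK cells (NKC) from spleens of ICR mice aged 6 weeks was measured on 10 expression arrays. WT (Runx3 +/+) and KO (Runx3 -/-) NKC were grown in culture over 7 days, either in recombinant human IL-2 at 1000 u/ml (3 arrays per genotype) or in mouse IL-15 (2 arrays per genotype), and each array held cells of an individual mouse. Runx3 is a transcription factor of the RUNX family, and in the KO mice it was lacking in all cells, not in NKC alone. Values were log2 signals, so that a difference of 1 is a doubling.

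The 11 NK cell markers with a probe set of their own, 10 of them above the filter, summed to log2 17.40 to 17.78 in all arrays. Itga2 lay below the filter, and the granulocyte and erythroid markers had no member above the filter. Each sum covers all genes of a list with a probe set of their own, also those below the filter. The B cell and dendritic cell lists, with 1 of 4 and 3 of 4 genes above the filter, summed to 8.72 to 8.87 and 6.03 to 8.46 in WT and to 10.88 to 11.03 and 8.61 to 10.49 in KO NKC with IL-2. The mast cell and basophil list, 3 of 5 genes, summed to 12.76 to 14.63 in WT and 10.85 to 11.61 in KO with IL-2, and Cd79a, Cd79b, Ms4a1, Flt3, Fcer1a and Ms4a2 lay below the filter. The T cell list, 3 of 6 genes, summed to 8.38 to 9.72 in KO with IL-2, within which its lowest WT array lay at 8.65, with Cd4, Cd8a and Cd8b1 below the filter. Some lists moved with the cytokine too. In WT the macrophage list, 4 of 4 genes, summed to 7.52 to 10.45 with IL-2 and 5.30 to 6.99 with IL-15, and in KO to 7.02 to 9.95 and 6.51 to 8.31. With IL-15 the dendritic cell list summed to 9.34 to 10.02 in WT and 9.14 to 9.78 in KO, the B cell list to 9.81 to 10.73 and 10.74 to 11.67, the T cell list to 9.63 to 11.38 and 8.25 to 9.69, and the mast cell and basophil list to 13.81 to 14.13 and 11.96 to 12.24. The part of these lists in the genotype and cytokine differences was not tested. Runx3 itself had means of 11.65 in WT and 11.07 in KO with IL-2, and of 12.48 and 11.38 with IL-15. Where its probe set lies relative to the deleted part was not given in the sources used here, so this level does not check the genotype.

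The normalization and the sex of the mice bear on the values below. The deposited values of same-numbered WT and KO arrays summed to the same value at every probe set within a cytokine, to within 0.00014, so the mean of each WT and KO pair had been equalised before deposit. The WT and KO SDs of a gene are therefore equal within a cytokine, and the KO versus WT test treated the pairs as blocks. The mice also differed in sex along with the cytokine, since Xist read 4.64 to 5.37 in the IL-2 arrays and 14.28 to 14.66 in the IL-15 arrays, and the Y-linked Eif2s3y read 7.31 to 9.17 and 2.34 to 2.43. Cytokine and sex cannot be told apart in these arrays.

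The respiratory chain sits in the inner mitochondrial membrane. Complexes I and II take electrons from NADH and succinate, complex III passes them to cytochrome c, and complex IV passes them to oxygen. Complexes I, III and IV pump protons, and complex V, the ATP synthase, uses the proton gradient to make ATP. Most subunits are encoded in the nucleus, and their genes are known targets of the factors NRF-1 and GABPA, an ETS factor. NKC that are activated by IL-2 or IL-15 grow and divide, and their need for ATP and biosynthesis rises.

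RefSeq promoters, from 250 bases before to 50 after the start site (build GRCm38.p6), were found for 61 of the 73 genes, which had 66 promoters between them. Their median GC content was 58.8%, against 52.7% over all 32851 promoters of the table. On either strand, the NRF-1 letters GCGCATGCG were in 10.6% of the 66 promoters and in 1.75% of all promoters. The ETS letters CCGGAAGT were in 7.58% and 3.89%, and the RUNX letters TGTGGT in 10.6% and 16.8% and TGCGGT in 12.1% and 6.45%. Some genes have several promoters in these counts. By gene, the NRF-1 letters were in 11.5% of the 61 genes and 1.95% of all genes, and the ETS letters in 8.2% and 4.31%. TGTGGT was in 11.5% and 18.9%, and TGCGGT in 9.84% and 7.34%. The genes with the NRF-1 letters were Atp5g2, Atp5k, Atp5l, Cox6a1, Ndufa8, Uqcr11 and Uqcrc1. These shares are descriptions of letters, not of binding.

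The promoters of 5 genes on which the results turn are shown, 5′ to 3′ on the strand of the gene, with matched motif letters in capitals. Atp5g1 (chr11:96075582-96075881, minus strand), Atp5g2 (chr15:102670998-102671297, minus strand) and Atp5g3 (chr2:73911277-73911576, minus strand) are shown because they encode the same mature protein and differed in their response. Cox7a1 (chr7:30183921-30184220, plus strand) was the gene called lower in the KO with IL-2, and Uqcr11 (chr10:80406772-80407071, minus strand) was lower with IL-15 in both genotypes and holds 3 of the motifs.
Atp5g1: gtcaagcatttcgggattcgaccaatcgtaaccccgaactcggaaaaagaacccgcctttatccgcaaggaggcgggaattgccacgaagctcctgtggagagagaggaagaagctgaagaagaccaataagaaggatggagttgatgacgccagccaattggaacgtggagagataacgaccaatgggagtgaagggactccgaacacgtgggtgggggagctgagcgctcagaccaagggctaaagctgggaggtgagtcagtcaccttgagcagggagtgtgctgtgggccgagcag
Atp5g2: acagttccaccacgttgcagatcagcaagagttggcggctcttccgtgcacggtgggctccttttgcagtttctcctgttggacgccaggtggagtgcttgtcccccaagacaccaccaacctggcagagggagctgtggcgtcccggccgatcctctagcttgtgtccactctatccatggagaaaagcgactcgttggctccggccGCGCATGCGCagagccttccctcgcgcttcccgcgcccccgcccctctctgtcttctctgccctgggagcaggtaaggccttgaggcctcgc
Atp5g3: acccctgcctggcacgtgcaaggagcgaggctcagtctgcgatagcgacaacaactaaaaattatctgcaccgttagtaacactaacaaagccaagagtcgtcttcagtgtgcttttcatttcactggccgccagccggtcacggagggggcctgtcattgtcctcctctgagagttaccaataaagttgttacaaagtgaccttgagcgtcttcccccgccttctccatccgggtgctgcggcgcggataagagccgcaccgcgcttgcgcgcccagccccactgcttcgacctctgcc
Cox7a1: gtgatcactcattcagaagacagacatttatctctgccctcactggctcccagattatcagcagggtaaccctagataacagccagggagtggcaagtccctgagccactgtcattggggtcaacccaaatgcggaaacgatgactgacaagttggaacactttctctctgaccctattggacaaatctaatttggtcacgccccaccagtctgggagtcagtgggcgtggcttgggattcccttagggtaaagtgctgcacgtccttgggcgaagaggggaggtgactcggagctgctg
Uqcr11: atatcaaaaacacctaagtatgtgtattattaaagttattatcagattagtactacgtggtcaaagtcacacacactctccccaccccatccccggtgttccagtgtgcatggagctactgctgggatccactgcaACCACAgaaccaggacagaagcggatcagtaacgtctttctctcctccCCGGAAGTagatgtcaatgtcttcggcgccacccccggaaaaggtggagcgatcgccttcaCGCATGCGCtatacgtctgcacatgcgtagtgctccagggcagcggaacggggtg
In Atp5g2 the capitals mark 2 overlapping NRF-1 matches, 1 on each strand. In Uqcr11 they mark, from the left, TGTGGT on the opposite strand, CCGGAAGT and the NRF-1 letters on the opposite strand. The windows of Atp5g1, Atp5g3 and Cox7a1 held none of the 4 motifs searched. The RUNX motif of the study, TGt/cGGt/c, also covers TGTGGC and TGCGGC, which were neither searched nor marked here. TGCGGC occurs in the Atp5g3 window and TGTGGC in that of Atp5g2, so these windows are not shown to lack a RUNX motif.

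Respiratory chain transcripts were among the bright signals of activated NKC. The median of the 73 genes over all arrays was log2 12.67, against 9.16 for all tested genes, and 83.6% of them, against 22.3% of all tested genes, reached log2 11. The range ran from 4.86 for Cox7a1 to 15.31 for Uqcrb, a small subunit of complex III. Levels of different probe sets are not on one scale, so these ranks are not ranks of transcript number. The 10 genes below the filter were Cox4i2, Cox6a2, Cox6b2, Cox7b2, Cox7c, Cox8b, Cox8c, Ndufa4l2, Ndufb1 and Ndufb4, and among them are the muscle isoforms Cox6a2 and Cox8b and the testis isoforms Cox6b2, Cox7b2 and Cox8c. Cox7c, Ndufb1 and Ndufb4 are not among these tissue isoforms, and a signal below the filter does not show that a transcript is absent. Of the isoforms used in most tissues, Cox6a1 had a mean of 14.81, Cox6b1 of 14.69 and Cox4i1 of 14.80. Cox7b was not analysed here.

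Loss of Runx3 was associated with few differences in the respiratory chain of NKC grown with IL-2. Of the 73 genes 1 was called (adjusted p under 0.05 by limma with Benjamini-Hochberg adjustment over all 9391 genes, and at least 1.5-fold), against 19.7% of all tested genes, and in the lower direction 1 against 9.17%. This gene, Cox7a1, passed the filter only through WT arrays, and of the other 72 genes 0 were called. At an unadjusted p under 0.05 there were 5 (Cox7a1, Ndufa4, Ndufs1, Ndufv1 and Uqcrq), against 36.3% of all tested genes. The median difference of the 73 genes, KO minus WT, was 0.15 on the log2 scale, against 0.11 for all tested genes. The median size of the difference, whatever its sign, was 0.21 for the respiratory chain and 0.54 for all tested genes, with median SEs of 0.25 and 0.30. Among the 2095 tested genes at log2 11 or more, 14.0% were called, and 0 of the 61 respiratory chain genes at that level.

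Cox7a1 is the heart and muscle isoform of a small subunit of complex IV. It read 5.59, 6.41 and 7.03 in the WT arrays with IL-2 and 4.72, 3.90 and 3.28 in the KO arrays. All KO arrays lay below all WT arrays and under the filter level, and the size of the difference varied among the pairs. The mean difference was -2.38 ± 1.44 (SD, n = 3 pairs; adjusted p = 0.0254 by limma), and since the KO mean of 3.97 lay under the filter level of log2 5, the fold is given against that level, as at least 2.54-fold lower. With IL-15 Cox7a1 read 5.19 and 4.64 in WT and 3.64 and 4.19 in KO, a difference of -1.0 ± 0.79 (SD, n = 2 pairs) that did not pass (adjusted p = 0.598 by limma). The filter admitted Cox7a1 through 4 WT arrays (3 with IL-2 and 1 with IL-15) and 0 of 5 KO arrays, so a difference between the genotypes was built into its selection and its call supports nothing further. The call in IL-2 was lost without either array of pair 2 (difference -2.31, adjusted p = 0.101) or of pair 3 (difference -1.69, adjusted p = 0.0719), and with no filter on low signal (adjusted p = 0.128). Cox7a2, the isoform of most tissues, had a difference of -0.01 with IL-2.

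The other subunits with the largest differences in IL-2 did not pass the adjusted test. Uqcrq, a small subunit of complex III, read 13.26, 13.43 and 13.52 in WT and 12.64, 12.47 and 12.38 in KO. The genotypes did not overlap, and the difference was -0.91 ± 0.26 (SD, n = 3 pairs; adjusted p = 0.0574 by limma). Ndufs1, an iron-sulfur core subunit of complex I, read 9.75, 9.95 and 9.60 in WT and 8.96, 8.76 and 9.11 in KO, again with no overlap (difference -0.82 ± 0.35, SD, n = 3 pairs; adjusted p = 0.0805 by limma). Ndufa4, which was named as a complex I subunit and is now placed in complex IV, had the highest difference, with 10.85, 10.99 and 10.18 in WT and 11.59, 11.45 and 12.25 in KO (1.09 ± 0.86, SD, n = 3 pairs; adjusted p = 0.110 by limma). The KO arrays were all above the WT arrays, and pair 3 had the widest gap.

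By complex, the median differences in IL-2 were 0.16 for complex I, 0.23 for complex II, 0.10 for complex III, 0.01 for complex IV and 0.13 for complex V. Complex I ranged from Ndufs1 to Ndufa4, and its catalytic subunits Ndufv1, which binds NADH, Ndufs7 and Ndufs8, which carry iron-sulfur clusters, had differences of 0.60, 0.40 and 0.73. In complex II the iron-sulfur subunit Sdhb had 0.54 and the flavoprotein Sdha -0.21. In complex III Uqcrc1, a core protein, had 0.35, the Rieske protein Uqcrfs1 0.10 and cytochrome c1, Cyc1, 0.27. In complex IV the highest was Cox6c at 0.35, while Cox5a had 0.22, Cox5b 0.02 and Cox4i1 0.00. In complex V the range ran from Atp5g1 at -0.38 to Atp5e, the epsilon subunit, at 0.52, and the alpha, beta and gamma subunits Atp5a1, Atp5b and Atp5c1 had 0.13, 0.21 and 0.19. Apart from Cox7a1 none of these differences was called.

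The medians of the pairs spread as widely as the median itself. In the IL-2 pairs the median KO minus WT difference of the 73 genes was 0.19, -0.11 and 0.37. In all 3 pairs 16 genes (21.9%) were higher and 9 (12.3%) lower in the KO, against 31.1% and 23.2% of all tested genes. Fitting the arrays without the pairs as blocks called 6 of the 73 genes. They were Cox7a1, Ndufs1 and Uqcrq lower and Ndufa4, Ndufs8 and Ndufv1 higher. That fit has 6 residual degrees of freedom where the equalised pairs leave 3. The share of all tested genes that it called is not given here, so the 6 are not a result about these genes.

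**Figure D1:**
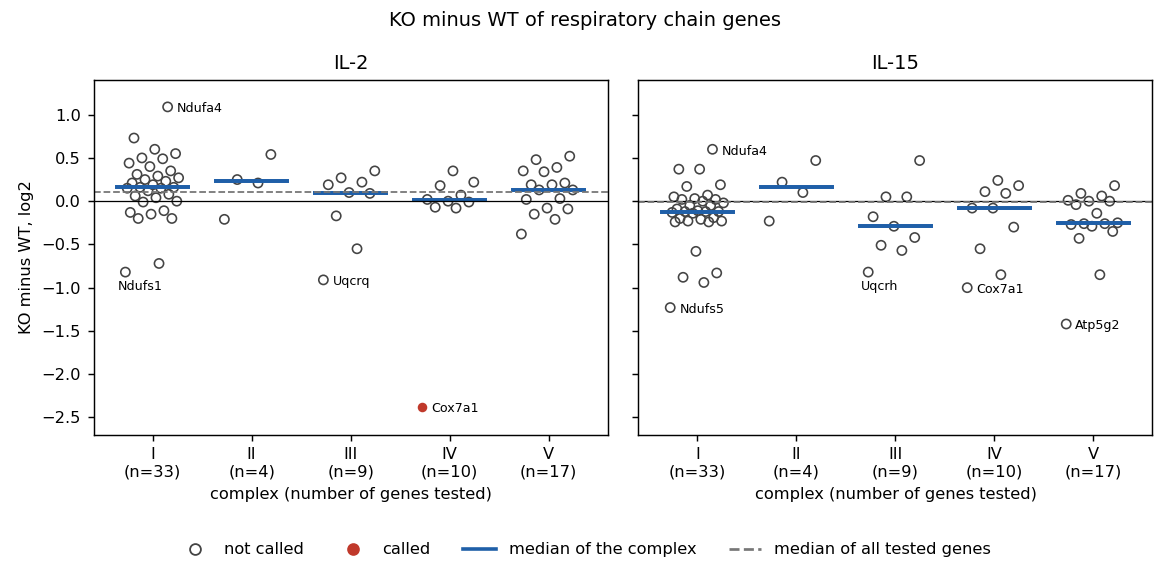
Difference of KO and WT NKC (log2, mean of 3 pairs with IL-2 and of 2 pairs with IL-15) for the 73 respiratory chain genes, by complex. Each circle is 1 gene, filled red where called, blue bars are medians of the complexes and the dashed line is the median of all tested genes, and Cox7a1 at -2.38 with IL-2 is the one filled circle.

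With IL-15, 0 of the 73 genes were called between KO and WT, against 1.30% of all tested genes, and 5 had an unadjusted p under 0.05, against 13.5%. These 5 were Atp5g2, a gene for the c subunit of the ATP synthase, the complex I subunits Ndufa6, Ndufa7 and Ndufb10, and Cox8a of complex IV, all with lower values in the KO. Their differences were -1.42, -0.94, -0.83, -0.88 and -0.85 on the log2 scale, and the lowest adjusted p by limma was 0.263, for Ndufa6. Another bright probe set of Ndufa7 gave a difference of 0.44. The median difference of the 73 genes was -0.12, against -0.01 for all tested genes, with pair medians of -0.06 and -0.18. In both pairs 13 genes (17.8%) were higher and 33 (45.2%) lower in the KO, against 31.7% and 32.9% of all tested genes.

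Atp5g2 had the largest difference with IL-15. It read 11.57 and 12.40 in WT and 10.98 and 10.15 in KO, a difference of -1.42 ± 1.17 (SD, n = 2 pairs; adjusted p = 0.264 by limma). The arrays did not overlap, but the pairs differed by -0.59 and -2.25, and another probe set of the gene gave a difference of 0.10. Ndufa6 read 12.11 and 12.34 in WT and 11.40 and 11.17 in KO, and Ndufs5, an accessory subunit of complex I, read 8.42 and 7.81 in WT and 6.57 and 7.19 in KO. Both were lower in each KO array than in each WT array, and Ndufs5 had a difference of -1.23 ± 0.87 (SD, n = 2 pairs; adjusted p = 0.446 by limma).

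The complex medians with IL-15 were -0.12, 0.16, -0.29, -0.08 and -0.25 for complexes I to V. The highest and lowest members were Ndufa4 at 0.60 and Ndufs5 in complex I, Sdhb at 0.47 and Sdhd, a membrane anchor, at -0.23 in complex II, and Cyc1 at 0.47 and Uqcrh, the hinge protein, at -0.82 in complex III. In complex IV they were Cox6a1 at 0.24 and Cox7a1, and in complex V Atp5a1 at 0.18 and Atp5g2. Among the central subunits Ndufv1 had -0.23, Ndufs1 0.19, Uqcrfs1 -0.29 and Atp5b 0.00. None of these passed the test.

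Whether the KO difference itself differed between the cytokines was tested in the same fit. The number called was 0 of 73 genes, and 0% of all 9391 genes. At an unadjusted p under 0.05 there were 2, Atp5g2 and Ndufa6, against 11.8% of all tested genes, with differences between the cytokines of -1.81 (adjusted p = 0.363 by limma) and -1.10 (adjusted p = 0.398). The median over the 73 genes was -0.29, against -0.14 for all tested genes. A fit without the pair blocks called 5 genes in KO versus WT with IL-15, which are the 5 above. In the test of the cytokine difference it called 5, which were Atp5g2, Ndufa6, Ndufb10, Ndufs1 and Ndufv1. The shares of all tested genes called in that fit are not given here, so these counts are not a result about these genes.

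Between the cytokines the respiratory chain differed more, and mostly toward lower values with IL-15. In WT NKC 17 of the 73 genes were called between IL-15 and IL-2 (23.3%), against 48.0% of all tested genes. Of these 13 fell with IL-15 and 4 rose, and the shares of all tested genes called lower and higher were 18.7% and 29.4%. Cox7a1, among the 13, passed the filter through 3 WT arrays with IL-2 and 1 with IL-15. Its fall was thus partly built into its selection, and of the other 72 genes 16 were called. In KO NKC 29 were called (39.7%), against 46.1% of all tested genes, and 27 fell and 2 rose, against 22.5% called lower and 23.6% called higher among all tested genes. Without array 2 of the KO with IL-15 the count in the KO was 18, and 13 calls were lost (Atp5e, Atp5g2, Atp5k, Atp5o, Cox8a, Ndufa4, Ndufa7, Ndufb2, Ndufs3, Ndufs8, Sdhb, Sdhd and Uqcrc1). The median difference was -0.13 in WT and -0.42 in KO, against 0.18 and -0.08 for all tested genes. Since pair means had been equalised, the spread between mice of a group is understated here and these p-values are too small by an unknown amount. In bulk RNA, fewer cells of a type and less RNA per cell cannot be told apart.

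The scaling of the arrays changed these levels. The median of all tested genes in WT was 0.18 as deposited, 0.24 with each array centred on its median and -0.05 after quantile normalization, and the respiratory chain lay below it by 0.31, 0.31 and 0.21. In KO it lay below by 0.34, 0.34 and 0.20. In WT the split of called respiratory chain genes was 4 higher and 13 lower as deposited, 4 and 11 after centring, and 2 and 18 after quantile normalization, and that of all tested genes was 2758 and 1754, 2922 and 1584, and 2147 and 2457. In KO the split was 2 and 27, 3 and 19, and 2 and 29, and that of all tested genes was 2217 and 2109, 2369 and 1768, and 2012 and 2733, which turned toward lower values with quantile normalization.

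**Figure D2:**
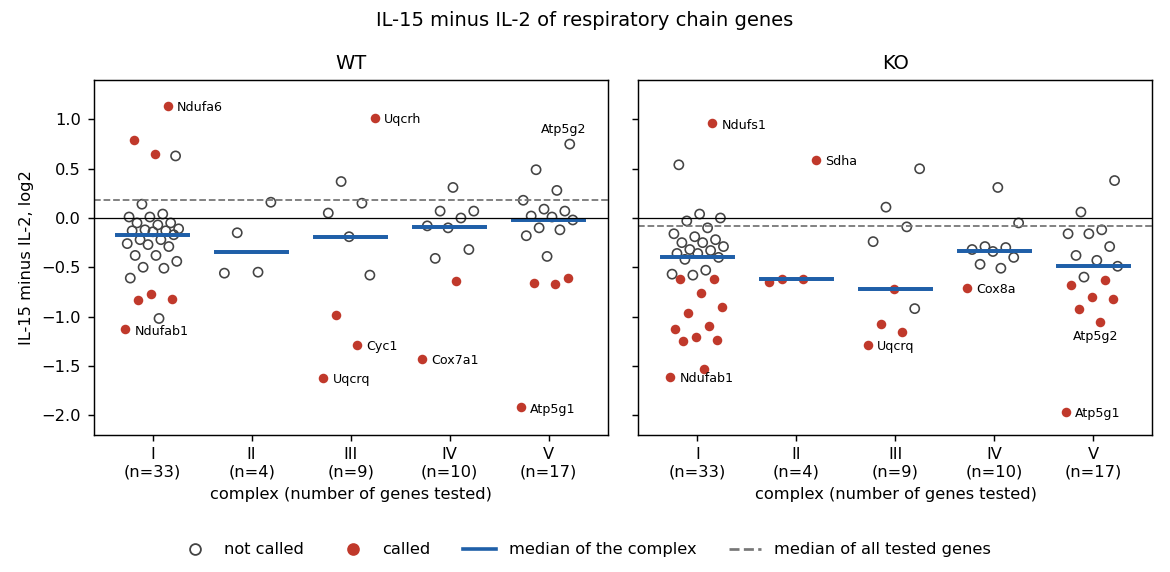
Difference of IL-15 and IL-2 (log2 of group means) in WT and KO NKC for the 73 respiratory chain genes, by complex. Each circle is 1 gene, filled red where called, with blue bars at the medians of the complexes and a dashed line at the median of all tested genes, and 13 of 17 filled circles in WT and 27 of 29 in KO lie below 0.

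Complex III held some of the largest differences, among them those of Cyc1 and Uqcrq. Cytochrome c1, Cyc1, which hands electrons to cytochrome c, read 13.96, 13.97 and 13.88 in WT with IL-2 and 12.56 and 12.73 with IL-15. In the KO it read 14.18, 14.17 and 14.26 with IL-2 and 13.21 and 13.03 with IL-15. All IL-15 arrays lay below all IL-2 arrays, and Cyc1 fell by 1.29 in WT (adjusted p = 0.000102 by limma) and by 1.08 in KO (adjusted p = 0.000242).

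Uqcrq fell as well, from 13.40 to 11.78 in WT (means; difference -1.62, adjusted p = 0.000204 by limma) and from 12.50 to 11.21 in KO (-1.29, adjusted p = 0.000635). Uqcr11, another small subunit, read 11.28, 11.41 and 10.82 in WT with IL-2 and 10.09 and 10.28 with IL-15, and the cytokines did not overlap in either genotype (differences -0.98 in WT and -1.16 in KO). Uqcrh went the other way in WT, from 12.77, 13.00 and 12.44 with IL-2 to 13.45 and 14.06 with IL-15 (1.02, adjusted p = 0.0148 by limma). In KO its difference was 0.11, and the arrays overlapped. The WT call of Uqcrh was lost without array 2 of WT with IL-15, and that of Uqcr11 without array 1. The core protein Uqcrc1 was called lower in KO (-0.72) with -0.19 in WT, Uqcrc2 had 0.37 and 0.50, and Uqcrfs1 0.15 and -0.24, neither called. The medians of complex III were -0.19 in WT and -0.72 in KO.

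In complex I, the entry point for NADH, 4 genes fell and 3 rose in WT, and 12 fell and 1 rose in KO, of 33. Ndufab1, the mitochondrial acyl carrier protein, read 12.23, 12.38 and 12.04 in WT with IL-2 and 10.79 and 11.39 with IL-15, and 12.48, 12.33 and 12.67 in KO with IL-2 and 11.18 and 10.58 with IL-15. The cytokines did not overlap in either genotype (-1.13, adjusted p = 0.00465, and -1.61, adjusted p = 0.00087, by limma). The accessory subunits Ndufb6, Ndufc1 and Ndufa12 fell in both genotypes, by 0.83, 0.82 and 0.77 in WT and by 1.25, 1.13 and 1.24 in KO.

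Called lower in KO but not in WT were the catalytic core subunits Ndufv1 (-1.21; -0.38 in WT), Ndufs8 (-0.90; -0.12), Ndufs7 (-0.76; -0.22) and Ndufs3 (-0.62; -0.26). The accessory subunits Ndufs5 (-1.53; -1.02 in WT), Ndufa4 (-1.10; -0.61), Ndufb2 (-0.96; -0.51) and Ndufa7 (-0.62; 0.01) were likewise called in KO alone. Of these calls that of Ndufs3 was lost in 7 of the 10 fits that left out an array, that of Ndufa4 in 3, that of Ndufs8 in 2 and those of Ndufs5, Ndufb2 and Ndufa7 in 1 each. For Ndufa7, other bright probe sets gave differences down to -0.80 in WT and -1.26 in KO. No gene passed the test of the difference between the genotypes, the lowest adjusted p by limma being 0.363. A call in one genotype and not in the other is therefore not shown to be a difference.

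The complex I genes that rose in WT were Ndufa6 (1.14), Ndufv2 (0.79), an iron-sulfur subunit, and Ndufb10 (0.65), with differences of 0.04, 0.00 and -0.22 in KO. The call of Ndufv2 was lost with quantile normalization, with no filter, with the mean of its probe sets and in 7 of the 10 fits that left out an array, and that of Ndufb10 with quantile normalization and without array 3 of WT with IL-2 or array 1 of WT with IL-15. That of Ndufa6 was kept in all of these. Ndufa6 read 10.89, 11.27 and 11.08 in WT with IL-2 and 12.11 and 12.34 with IL-15, and its KO arrays lay between 11.05 and 11.44 with either cytokine. The WT arrays with IL-15 stood above the other 8. Ndufs1 rose in KO (0.96, adjusted p = 0.00348 by limma) with -0.05 in WT, and its 3 KO arrays with IL-2, from 8.76 to 9.11, stood below the other 7, from 9.53 to 10.08. The X-linked Ndufa1 had -0.50 and -0.36 and Ndufb11 -0.13 and -0.25, and neither was called.

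All 4 complex II genes were called in KO as deposited, but the calls of Sdhb, Sdhc and Sdhd were lost with each array centred on its median. The flavoprotein Sdha, which oxidises succinate, rose by 0.59, and Sdhb, Sdhc and Sdhd fell by 0.62, 0.65 and 0.62. In WT none was called, and their differences were 0.16, -0.56, -0.55 and -0.15. Sdha read 11.70, 11.50 and 11.64 in KO with IL-2 and 12.31 and 12.10 with IL-15, with no overlap, whereas in WT the cytokines overlapped. Another bright probe set of Sdha gave a difference of 0.82 in WT and 0.84 in KO, with no overlap in either genotype. In the fits that left out an array, the call of Sdhb was lost in 3 of 10 and those of Sdha, Sdhc and Sdhd in 2 each.

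Complex IV had the fewest calls for its size in KO, 1 of 10, against 2 of 10 in WT. Of the 2 in WT, Cox7a1 passed the filter through 3 WT arrays with IL-2 and 1 with IL-15, so its call supports nothing further. Cox8a, the widespread isoform of its subunit, fell in KO (-0.71; 0.07 in WT). In WT Cox6a1 fell (-0.64; -0.32 in KO), and Cox7a1 fell from a mean of 6.35 to 4.91, under the filter level, which is at least 2.54-fold lower (adjusted p = 0.0384 by limma), while its KO arrays were under log2 5 with both cytokines. This call was lost with no filter (adjusted p = 0.0762) and without array 2 (0.0756) or 3 (0.0979) of WT with IL-2, array 2 of the KO with IL-2 (0.0511), or array 1 (0.0706) or 2 (0.195) of WT with IL-15, all adjusted p by limma. The regulatory subunit Cox4i1 had 0.00 in WT and -0.30 in KO, Cox5a -0.10 and -0.40, Cox5b -0.41 and -0.34, Cox6b1 -0.32 and -0.29, and Cox7a2 0.07 and -0.47. Cox7a2l, which joins complexes into supercomplexes, had 0.31 in both. With Ndufa4 counted here in place of complex I, the median in KO was -0.34 instead of -0.33.

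In complex V, 4 of 17 genes fell in WT and 7 in KO, and none rose in either. The catalytic beta subunit Atp5b fell in both genotypes (-0.61 and -0.82), as did the small membrane subunit Atp5mpl (-0.66 and -0.68). The alpha subunit Atp5a1 had 0.01 and 0.06 and the gamma subunit Atp5c1 0.07 and -0.16, although other probe sets of Atp5a1 gave differences down to -0.84 in WT and -1.20 in KO. Atp5md fell in WT (-0.67; -0.49 in KO). In KO the epsilon subunit Atp5e (-0.92), Atp5o, which joins the stalk to the head (-0.80), and the membrane subunit Atp5k (-0.63) fell, with -0.12, -0.10 and -0.18 in WT. The call of Atp5k was lost with centring, with no filter, with the mean of its probe sets and in most fits that left out an array. That of Atp5b in WT was lost with centring and in some fits that left out an array. Atp5pb, subunit b, had the highest difference in KO, 0.38.

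The genes Atp5g1, Atp5g2 and Atp5g3 encode the same mature c subunit, which forms the rotor ring of the ATP synthase, behind different import sequences, and they differed in their values. Atp5g1 read 11.82, 11.93 and 11.10 in WT and 11.04, 10.93 and 11.76 in KO with IL-2, and 9.50 and 9.90 in WT and 9.47 and 9.07 in KO with IL-15. All IL-15 arrays were below all IL-2 arrays, and Atp5g1 fell by 1.92 in WT (adjusted p = 0.00154 by limma) and by 1.97 in KO (adjusted p = 0.00141), the largest fall of any respiratory chain gene in either genotype.

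Atp5g2 read 11.12, 11.61 and 10.97 in WT and 11.74, 11.25 and 11.89 in KO with IL-2. With IL-15 it fell in KO (-1.06, adjusted p = 0.0336 by limma) and had a difference of 0.75 in WT (adjusted p = 0.102 by limma). The call in KO was lost with centring, with no filter and in some fits that left out an array. All arrays of Atp5g3 lay between 14.70 and 15.12, with differences of -0.02 and -0.29 that were not called. Of the promoters printed above, that of Atp5g2 holds the NRF-1 letters and those of Atp5g1 and Atp5g3 do not.

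**Figure D3:**
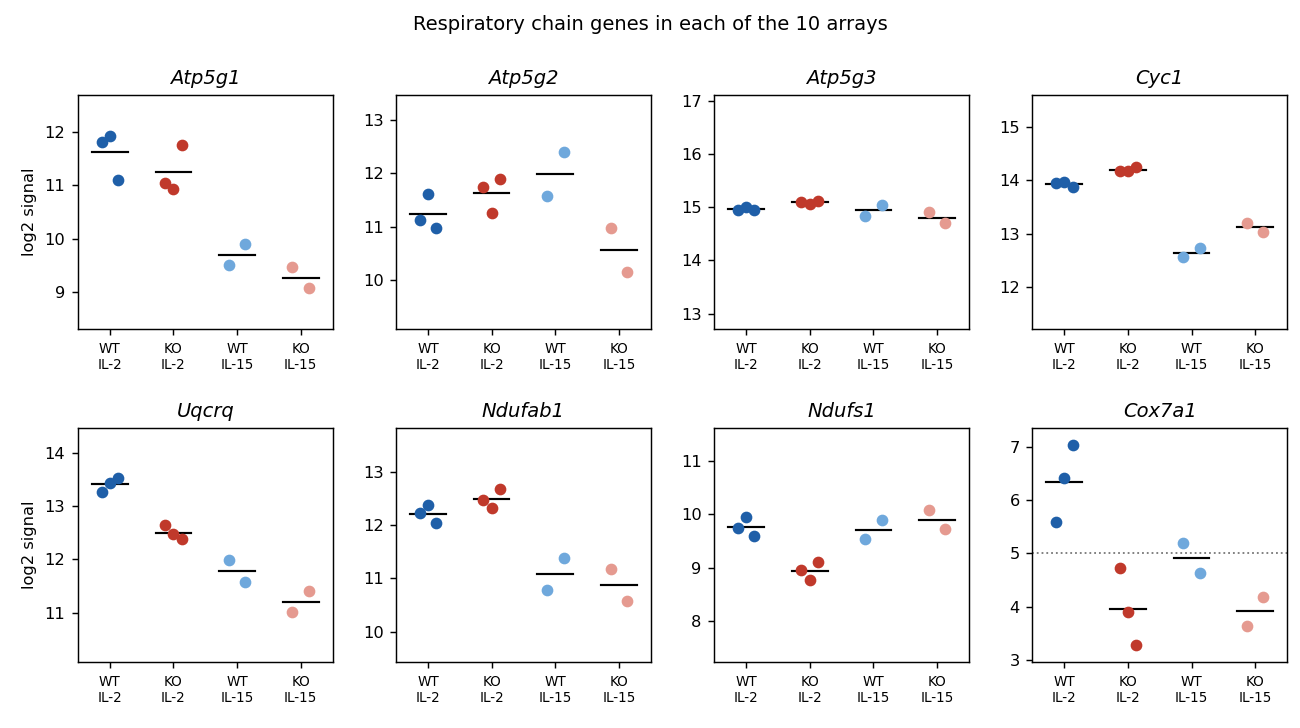
Log2 signal of 8 respiratory chain genes in each of the 10 arrays (points), with the mean of each group (black bars) and, for Cox7a1, the filter level of log2 5 (dotted line), every panel spanning the same number of log2 units. Atp5g1, Cyc1, Uqcrq and Ndufab1 were lower in every IL-15 array than in every IL-2 array, Atp5g3 stayed between 14.70 and 15.12, and the KO arrays of Ndufs1 with IL-2 stood below the others.

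In the direction of the differences, 47 of the 73 genes (64.4%) were lower and 9 (12.3%) were higher with IL-15 in both genotypes, against 35.7% and 39.8% of all tested genes. The genes called in both were 10 of 73 (13.7%), against 31.1% of all tested genes, and all 10 were lower, where 12.9% of all tested genes were called lower in both and 17.5% higher in both. These were Atp5b, Atp5g1, Atp5mpl, Cyc1, Ndufa12, Ndufab1, Ndufb6, Ndufc1, Uqcr11 and Uqcrq. The complex medians were -0.17, -0.35, -0.19, -0.09 and -0.02 for complexes I to V in WT and -0.40, -0.62, -0.72, -0.33 and -0.49 in KO. Among the genes at log2 11 or more, 13 of 61 respiratory chain genes were called in WT and 20 of 61 in KO, against 40.7% and 36.6% of all tested genes at that level.

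Other genes of mitochondrial respiration were counted in the same way, beside 18.7% of all tested genes called lower and 29.4% called higher in WT, and 22.5% and 23.6% in KO. Mitochondrial ribosomal proteins, which translate the subunits encoded in mitochondrial DNA, included 28 of 76 that fell and 4 that rose with IL-15 in WT, and 46 that fell and 0 that rose in KO, with medians of -0.38 and -0.78. The share that fell was 36.8% in WT and 60.5% in KO. Among 47 assembly factors 15 fell (31.9%) and 6 rose in WT, and 19 fell (40.4%) and 1 rose in KO. Of 15 genes for electron carriers and coenzyme Q synthesis 10 fell (66.7%) and 2 rose in WT, and 9 fell and 1 rose in KO, and cytochrome c, Cycs, fell by 1.09 and 1.27. Of 17 genes of the TCA cycle and pyruvate dehydrogenase 4 fell (23.5%) and 1 rose in WT, and 4 fell (23.5%) and 3 rose in KO, with lower calls near the share of all tested genes. Of 6 carriers and porins 1 fell in each genotype, the ADP and ATP carrier Slc25a5 (-0.80 and -0.77). The mitochondrially encoded ND5, the one such gene with a probe set, rose in KO (1.83) and had 0.29 in WT.

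Of the 18 regulators of mitochondrial gene expression 8 rose (44.4%) and 2 fell in WT, against 29.4% called higher among all tested genes, and 4 rose (22.2%) and 3 fell in KO, against 23.6%. Gabpa, the DNA-binding subunit of the GABP factor, rose by 1.79 in WT and 2.34 in KO. Its partners went opposite ways, since Gabpb1 fell and Gabpb2 rose in both genotypes. The mean of Gabpb2 went from 8.23 to 11.02 in WT and from 8.89 to 11.19 in KO. The coactivator Pprc1 fell in both genotypes. Ppargc1a read 4.11 to 4.29 in WT with IL-2, 5.23 and 6.96 in WT with IL-15, 4.07 to 4.25 in KO with IL-2 and 4.06 and 2.32 in KO with IL-15. It passed the filter only through the WT arrays with IL-15, the group where it is high, and without it 7 of 17 regulators rose in WT. Tfam, which packages and transcribes mitochondrial DNA, rose by 1.36 in WT and had 0.44 in KO.

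Between KO and WT with IL-2, 4 of the 18 regulators were called higher and none lower, which is 22.2% against 10.5% of all tested genes called higher. They were Nrf1 (1.57), which encodes NRF-1, Ppargc1b (1.15), a coactivator, Polrmt (1.75), the mitochondrial RNA polymerase, and Polg (2.21), the catalytic subunit of the mitochondrial DNA polymerase. Nrf1 read 7.02, 6.90 and 7.32 in WT and 8.70, 8.83 and 8.41 in KO, with no overlap (adjusted p = 0.0137 by limma). Among regulators not called, Tfb2m (-0.92), Gabpb1 (-0.87) and Gabpa (-0.73) were lower in the KO in all 3 pairs. Tfam (0.71) and Polg2 (0.70) were higher in all 3. The other lists stand beside 10.5% of all tested genes called higher and 9.17% called lower. Of 47 assembly factors 1 rose, Atpaf2 (2.13%), and 2 fell, Ndufaf7 and Lrpprc (4.26%). Of 15 genes for electron carriers and coenzyme Q synthesis 1 rose, Coq10a (6.67%), and none fell. Of 17 genes of the TCA cycle and pyruvate dehydrogenase 1 rose, Idh2 (5.88%), and 3 fell, Dld, Sucla2 and Dlat (17.6%). None of 76 mitochondrial ribosomal proteins was called. With IL-15 no gene of these lists was called between KO and WT, and none in the test of the difference between cytokines.

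**Figure D4:**
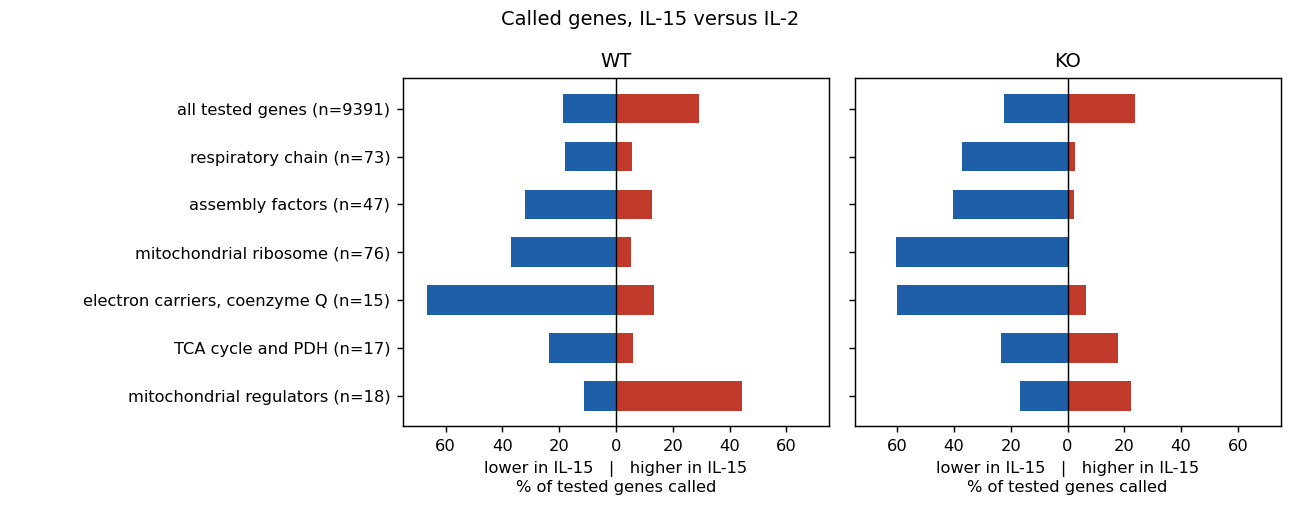
Share of tested genes called lower (blue, left) or higher (red, right) with IL-15 than with IL-2, in WT and KO NKC, for all tested genes, the respiratory chain and 5 lists of related genes (PDH, pyruvate dehydrogenase). The respiratory chain has more genes called lower than higher in both genotypes, as do all lists but the mitochondrial regulators, and no mitochondrial ribosomal protein was called higher in KO.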

How the data were processed

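Total RNA of sorted splenic NKC was hybridised to Affymetrix arrays by the authors, and the deposited values were log2 signals that the authors normalized by GCRMA in Partek. The deposited table held 45101 probe sets in 10 arrays, all used here. Of these, 34958 probe sets had 1 gene symbol, and probe sets with several symbols (932) or none were left out. RefSeq matched all 83 gene identifiers, and 18 of the 73 genes rest on a probe set whose suffix marks probes shared with other transcripts. The number of arrays limits the precision.

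Same-numbered WT and KO arrays of a cytokine were checked for pairing. Their sums differed by at most 0.00014 with IL-2 and 0.00013 with IL-15, against medians of 0.193 and 0.17 for crossed numbers, and the labels do not state this step. KO versus WT and its difference between cytokines were therefore fitted with limma 3.58.1 in R 4.3.3 with the pair as a block (3 residual degrees of freedom), and IL-15 versus IL-2 on 4 group means. P-values were Benjamini-Hochberg adjusted over 9391 genes, and genes were called at an adjusted p under 0.05 and 1.5-fold. The 1.5-fold threshold is that of the study's methods. The fit of KO versus WT with IL-2 was tested on simulated data, with and without the pair block, and those of the other comparisons were not.

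The genes, lists and tests were chosen with earlier results of these data known. Genes named are those called, the highest and lowest of each complex, central subunits, isoforms and X-linked subunits; those in other lists were named after their values were seen. Alternatives were centring, quantile normalization, other filters, the mean of probe sets, no block, other thresholds, Ndufa4 in complex IV and leaving out each array. A background of genes at log2 11 or more was added after seeing the data, as were the values without X-linked genes.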

Additional observations from a re-analysis of the deposited data

How the results depend on the processing

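The counts of called respiratory chain genes in the genotype comparisons depended on the processing. In KO versus WT with IL-2 the count of 1 became 2 with quantile normalization (Cox7a1 and Uqcrq), 0 with no filter on low signal, 0 with a filter of log2 7 in at least 2 arrays, which removes Cox7a1, 6 with no replicate block and 5 at an unadjusted p under 0.05 with 1.5-fold. With IL-15 the count of 0 became 5 with no replicate block and 5 at the unadjusted p. In the difference between cytokines it became 5 with no replicate block and 2 at the unadjusted p. The shares of all tested genes called with no replicate block are not given here. In the IL-15 versus IL-2 comparison in WT the count of 17 became 26 with no fold threshold, and the median of -0.13 became -0.26 with quantile normalization. In the other settings tried these counts stayed within 1.5 times and the medians, of the complexes too, within the spread between replicates.

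Leaving out each array in turn gave 0 to 1 called genes in KO versus WT with IL-2, where the count was 0 without array 2 or 3 of either genotype, 0 with IL-15 and 0 in the difference between cytokines. It gave 12 to 17 in WT and 18 to 30 in KO for IL-15 versus IL-2, with 18 without array 2 of the KO with IL-15. Arrays left alone in a group by this are assumed to vary like the other groups. Leaving out the X-linked genes, chosen after seeing the data, could not change the counts, since neither was called. No called gene changed sign in any setting tried. Among 40 genes with several bright probe sets, probe sets gave both signs in 9 genes with IL-2 and 14 with IL-15 for KO versus WT, and in 5 (WT) and 3 (KO) for the cytokines. With 3 and 2 arrays per group, differences of the median size found here, 0.21 against an SE of 0.25 with IL-2, lay within their error.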

Other observations

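At their brightest probe set, some respiratory chain genes kept 1 direction between KO and WT in every pair, whichever the cytokine. Atp5h, Cox6b1, Cyc1, Ndufa9 and Sdhb were higher in the KO in all 5 pairs, which is 6.85% of the 73 genes, against 17.6% of all tested genes. Atp5d, Cox7a1, Ndufa13, Ndufa7, Uqcrc2 and Uqcrq were lower in all 5 pairs, 8.22% against 13.7%. Ndufa9, an accessory subunit of complex I, differed by 0.36, 0.43 and 0.72 in the IL-2 pairs and by 0.33 and 0.42 in the IL-15 pairs, and Uqcrq by -0.63, -0.97 and -1.13 and by -0.96 and -0.18. Other bright probe sets gave mean differences of up to 0.53 (IL-2) and 0.44 (IL-15) for Ndufa7. They reached -0.51 (IL-15) for Atp5h, and -0.10 (IL-2) and -0.18 (IL-15) for Cox6b1, while those of Atp5d and Uqcrc2 were lower too. Cox7a1 passed the filter only through WT arrays, so its direction was built into its selection. The genes listed here were chosen for their direction and no test was made of it.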
